A study of Sisymbrium orientale with 12 samples.

Results

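The loci described here are heat shock proteins, J-domain proteins and heat shock factors in young leaves of Sisymbrium orientale (Indian hedge mustard), a weed related to Arabidopsis. A member is a contig (an assembled transcript) whose annotation text holds "heat shock", "heat-shock" or "HSP20-like", in upper or lower case, and lacks "INVOLVED IN". This wording took 198 of 33277 contigs, and summing the contigs of each closest Arabidopsis locus gave 107 of 16386 loci. They comprised 10 small heat shock proteins, 1 HSP101, 14 HSP70, 4 HSP90, 3 HSP60, 42 J-domain proteins and 12 heat shock factors. Another 20 loci belonged to the wider HSP20-like family, and 1 encoded a heat shock factor binding protein (AT4G15802). The wording uses no measured level, but it was chosen with earlier results of these data known. Of the 107 loci, 59 had a single contig and 33 had contigs of both assemblies that the contig names show. Where the annotation gives a family and no symbol, the symbol used for a locus is that of Arabidopsis.

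The series title concerns resistance to the synthetic auxin herbicide 2,4-D and a deletion in the degron tail of IAA2, a repressor of auxin responses. Cross A was sampled in generation F4, with the resistant lines R202, R206 and R221 and the susceptible lines S205, S207 and S242. Cross B was sampled in generation F3, with the resistant lines RP6 and RP8 and the susceptible lines SP3, SP7, SP9 and SRP1. Cross and generation therefore cannot be told apart, and the labels give neither the parents nor the IAA2 genotype of each line. All 12 libraries came from the leaf tissue of plants that had received no treatment, kept at 25 °C by day and 20 °C by night with 16 h of light and 8 h of dark. No heat stress is named in the labels. How many plants stand behind a line is not stated, so p-values measure the spread between these libraries, which may be partly technical.

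Values are CPM, reads counted per contig and divided by a library size that the authors scaled. They were made from between 100976475 reads (R206) and 145936928 reads (RP8) per library, so that 3 reads equal 0.0196 to 0.0299 CPM. S205 and SP9 stood apart from the other lines, since Rubisco small chain contigs made up 6.62% and 5.17% of their values against 3.39% to 4.603% elsewhere. Of 8 mesophyll marker genes 5 were measured, at a summed level of 36825 to 85447 CPM, so that the labelled tissue was expressed in all libraries. The filter of at least 1 CPM in at least 5 libraries kept 16051 loci, among them 102 members.

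Chaperones bind proteins that are not folded and keep them from clumping. In plants, small heat shock proteins hold unfolding proteins, HSP101 pulls aggregates apart together with HSP70, and J-domain proteins (the HSP40 family) bring clients to HSP70 and start its ATP hydrolysis. HSP90 completes the folding of kinases, receptors and other regulators, and HSP60 forms a folding cage in mitochondria. One set of these proteins works in every unstressed cell, and another is switched on by heat shock factors when proteins unfold.

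The constitutive chaperones had the highest levels among the 59 members with a single contig, which were the members compared per length. HSC70-1 (AT5G02500), the main cytosolic HSP70 of unstressed Arabidopsis, stood at 790 ± 134 CPM per kb of contig (SD, n = 12). The cytosolic HSP90 HSP81-2 (AT5G56030) followed at 358 ± 74.4 CPM per kb (SD, n = 12). BIP2 (AT5G42020), the HSP70 of the endoplasmic reticulum, was the third at 162 ± 33.9 CPM per kb (SD, n = 12). Over the 12 lines HSC70-1 ran from 531 to 984 CPM per kb, above every line of HSP81-2 at 233 to 504, and HSP81-2 overlapped BIP2 at 122 to 242.1 only at its lowest end. The highest J-domain protein was AT5G23240 at 79.6 ± 35.7 CPM per kb (SD, n = 12), and HSP60 (AT3G23990) stood at 74.3 ± 14.7 CPM per kb (SD, n = 12), within the spread of the former. Stress-inducible members were lower. HSP21, the small heat shock protein of chloroplasts, stood at 26.3 ± 6.73 CPM per kb, HSP17.6-CII at 5.70 ± 5.62, HSP101 at 5.55 ± 2.21 and HSP70B at 0.606 ± 0.412 CPM per kb (SD, n = 12 each). HSP17.6-CII and HSP101 differed by less than the spread between lines.

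The comparison of the crosses gave 1 call among the members in limma, HSP101, which was lower in cross B. Most stress-inducible small heat shock proteins and HSFA2 also had differences below 0, and none of these passed in limma. DESeq2 called HSP17.6-CII, HSP17.4-CIII, HSP17.6B-CI, HSP22.0 and HSFA2 lower in cross B, and edgeR called none of them. HSP101 (AT1G74310) is the cytosolic disaggregase that Arabidopsis needs to survive severe heat. Its level in cross A was 21.3 CPM in R202, 16.8 in R206, 30.8 in R221, 24.7 in S205, 21.67 in S207 and 29.2 in S242. In cross B it was 8.84 CPM in RP6, 12.7 in RP8, 9.71 in SP3, 12.8 in SP7, 12.9 in SP9 and 20.4 in SRP1. SRP1 reached into the range of cross A, and the other lines of cross B lay below every line of cross A. The means were 12.9 ± 4.08 CPM in cross B and 24.1 ± 5.26 CPM in cross A (SD, n = 6 each). With phenotype as a covariate, the difference of cross B minus cross A was -0.94 on the log2(CPM + 0.5) scale (SE 0.191, limma adjusted p = 0.041 over all loci). In limma 1.25% of loci were called between the crosses, 0.561% higher and 0.685% lower in cross B, so 1 called among 102 members is a share near that of all loci. The call was lost when any line other than R206 or SRP1 was left out, where the adjusted p of limma ran up to 0.102. Over all 12 fits with 1 line left out, the difference stayed between -1.05 and -0.84. The call was also lost with edgeR (adjusted p = 0.057) and without S205 and SP9 (limma adjusted p = 0.0834). Over all alternatives the adjusted p of HSP101 ran from 6.4e-04 with DESeq2 to 0.102. In bulk leaf, fewer cells of a type and less RNA per cell cannot be told apart.

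Of the 102 members tested, 23 (22.5%) had an unadjusted p under 0.05, against 13.6% of all loci. Among them 21 (20.6%) had an unadjusted p under 0.05 and a lower level in cross B, against 6.25% of all loci, and 2 (1.96%) had one with a higher level, against 7.31%. These are counts before adjustment, and the median difference of the members was -0.02 beside 0.01 for all loci. By family, 5 of the 10 small heat shock proteins, 4 of the 11 heat shock factors, 3 of the 14 HSP70, 1 of the 4 HSP90, 6 of the 40 J-domain proteins, 1 of the 18 other HSP20-like loci and HSP101 made up the lower ones. DESeq2 called 15 members, 14 lower and 1 higher in cross B, where it called 4.81% of all loci, 2.63% lower and 2.18% higher, and edgeR called none of them among its 0.972% of loci. The lower calls of DESeq2 were HSP101, HSP17.6-CII, HSP17.4-CIII, HSP17.6B-CI, HSP22.0, HSP70B, HSP70T-2, HSFA2 and HSFA4A. Also lower were AT2G20560, AT3G47940, AT4G16550, AT5G12430 and AT5G18750, and HSP70-3 was the higher one. The count of called members thus depends on the tool.

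**Figure D1:**
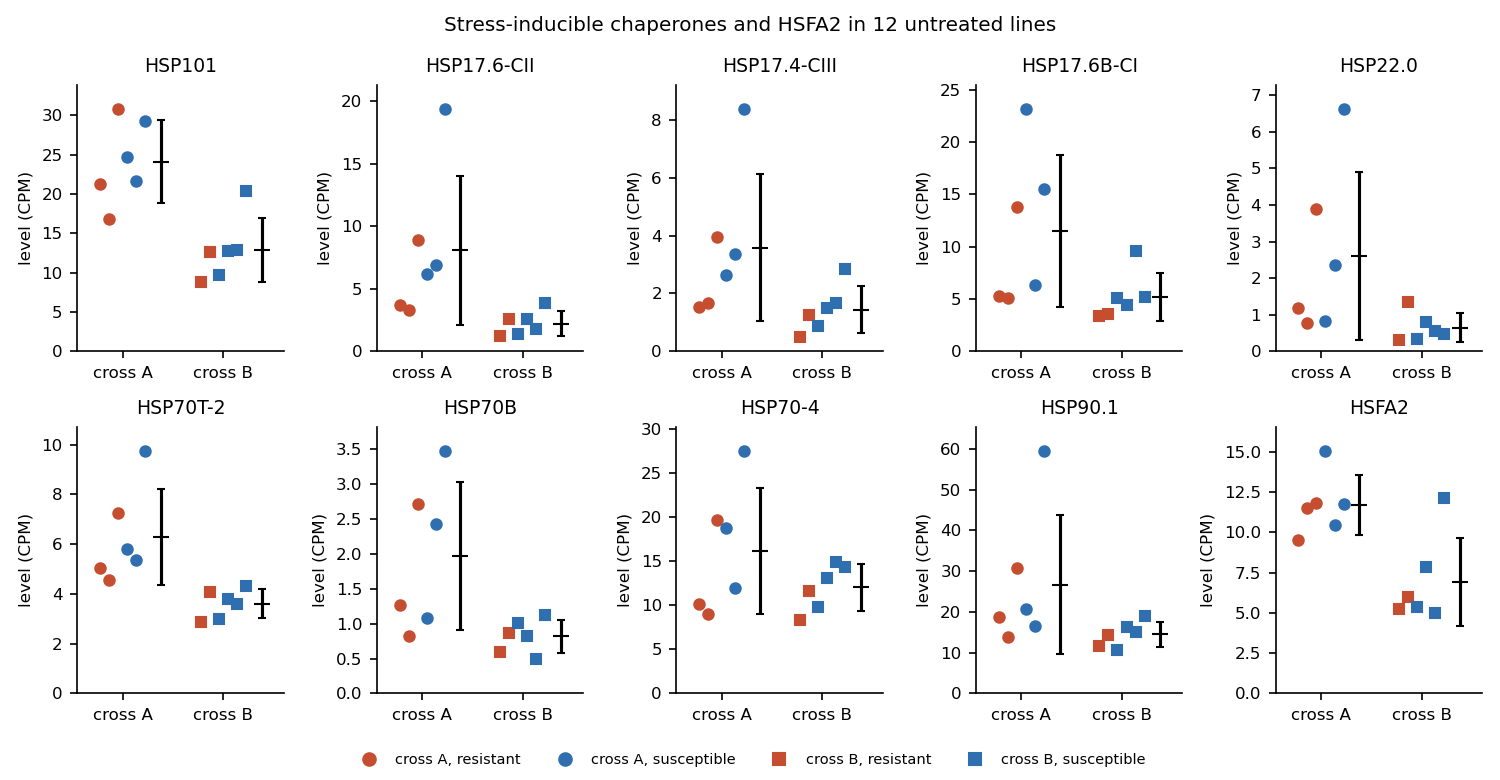
Levels in CPM (y axes from 0, one scale per panel) of 9 stress-inducible chaperones and HSFA2 in the 12 lines, by cross; circles are cross A, squares cross B, red resistant and blue susceptible, and the bar is the mean ± SD of 6 lines. HSP101 runs from 16.8 to 30.8 CPM in cross A and from 8.84 to 20.4 CPM in cross B. S242 is the highest line for HSP17.6-CII, HSP17.4-CIII, HSP22.0, HSP70T-2, HSP70B, HSP70-4 and HSP90.1. The small heat shock proteins drawn have the largest log2 differences between the crosses in their family. Those with smaller ones, such as HSP23.6 (-0.60) and HSP17.4-CI (-0.24), are not drawn.

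Among the 10 small heat shock proteins, 8 had a difference below 0, and the median was -0.47. HSP17.6-CII (AT5G12020), of the cytosolic class II, had levels of 3.70, 3.28 and 8.91 CPM in R202, R206 and R221 and 6.20, 6.91 and 19.4 CPM in S205, S207 and S242. In cross B its levels were 1.22 and 2.58 CPM in RP6 and RP8 and 1.36, 2.57, 1.78 and 3.85 CPM in SP3, SP7, SP9 and SRP1. The crosses overlapped through R202, R206 and SRP1 alone. The difference was -1.59 (SE 0.353, limma adjusted p = 0.0573), at 2.23 ± 0.984 CPM in cross B and 8.07 ± 5.93 CPM in cross A (SD, n = 6 each). Without R206 it passed the test (limma adjusted p = 0.0465), and DESeq2 gave an adjusted p of 2.6e-04. Over the other alternatives of limma and edgeR its adjusted p ran up to 0.129.

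The other cytosolic and endoplasmic small heat shock proteins had wide spreads in cross A. HSP17.4-CIII (AT1G54050), of the nuclear class III, stood at 3.59 ± 2.53 CPM in cross A and 1.44 ± 0.814 in cross B (SD, n = 6 each), a difference of -1.11 (SE 0.32, limma adjusted p = 0.135). HSP17.6B-CI (AT2G29500), of cytosolic class I, stood at 11.5 ± 7.25 and 5.19 ± 2.26 CPM (SD, n = 6 each), with 23.2 CPM in S205 and 15.5 in S242 as its highest lines. HSP22.0 (AT4G10250), which in Arabidopsis enters the endoplasmic reticulum, stood at 2.61 ± 2.30 and 0.644 ± 0.393 CPM (SD, n = 6 each), with 6.63 CPM in S242 and 3.90 in R221. In each of these the crosses overlapped. The differences were -1.06 (limma adjusted p = 0.163) and -1.22 (limma adjusted p = 0.238). DESeq2 called HSP17.4-CIII, HSP17.6B-CI and HSP22.0 lower in cross B. HSP22.0 passed the filter only through R202, R221, S207 and S242 of cross A and RP8 of cross B.

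The other small heat shock proteins had differences between -0.60 and 0.21. HSP21 of chloroplasts (AT4G27670) stood at 32.3 ± 8.97 CPM in cross A and 25.7 ± 3.82 in cross B (SD, n = 6 each), a difference of -0.34 (limma adjusted p = 0.337). HSP23.6 of mitochondria (AT4G25200) ranged from 1.76 CPM in RP6 to 18.46 CPM in S242, with a difference of -0.60 (limma adjusted p = 0.593). HSP18.5 (AT2G19310) had 24.0 CPM in S242 and 12.4 to 14.9 CPM in the other lines of cross A. HSP17.4-CI (AT3G46230), of cytosolic class I, had a difference of -0.24 (limma adjusted p = 0.716), and HSP15.4 (AT4G21870) one of 0.21 (limma adjusted p = 0.762). HSP21.7 (AT5G54660) did not share this order of lines, since it was highest in S205 at 9.69 CPM and in SP9 at 7.86 CPM and lowest in S242 at 2.09 CPM. The sum of the 10 small heat shock proteins was 54.2 CPM in RP6, the lowest line, and 142 CPM in S242, the highest.

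Neither limma nor edgeR called any of the 14 HSP70 and 4 HSP90 loci between the crosses. DESeq2 called HSP70B and HSP70T-2 lower and HSP70-3 higher in cross B. The limma differences of these families ran from -0.86 for HSP70B to 1.71 for HSP70-3. HSP70T-2 (AT2G32120), a truncated HSP70, ranged from 4.56 to 9.76 CPM in cross A (median 5.60) and from 2.89 to 4.31 CPM in cross B (median 3.70). Its crosses did not overlap, and its difference was -0.73 (SE 0.17, limma adjusted p = 0.0687). It was 1 of 3 members whose lines in cross B were below those of cross A without overlap, beside AT4G16550 and AT5G12430; 1.03% of all loci showed this. No member had the opposite pattern, which 1.03% of all loci showed as well.

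HSP70B (AT1G16030), a heat-induced cytosolic HSP70, was low in all lines, with a lowest level of 0.492 CPM in SP9, a median of 1.85 CPM in cross A and 0.843 CPM in cross B, and a highest level of 3.48 CPM in S242. HSP70-4 (AT3G12580), another heat-induced HSP70, stood at 16.1 ± 7.11 CPM in cross A and 12.001 ± 2.61 in cross B (SD, n = 6 each), a difference of -0.41 (limma adjusted p = 0.481). HSP90.1 (AT5G52640) is the heat-induced cytosolic HSP90. Its levels in cross A were 18.8, 13.8 and 30.8 CPM in R202, R206 and R221 and 20.7, 16.6 and 59.5 CPM in S205, S207 and S242, against 10.6 to 18.9 CPM in cross B. The difference of -0.76 did not pass the test (SE 0.30, limma adjusted p = 0.301), and the crosses overlapped. HSP70-2 (AT5G02490), another cytosolic HSP70, ranged from 124 to 259 CPM, with a difference of -0.39 (limma adjusted p = 0.259).

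Heat shock factors bind the promoters of these genes, the A class as activators and the B class mostly as repressors. Of 12 members 11 were tested, 9 of them with a difference below 0, and the median was -0.16. HSFB1 and HSFA1D, both near 0, changed sign without S205. HSFA2 (AT2G26150), which in Arabidopsis prolongs the heat response, had 9.52, 11.5 and 11.8 CPM in R202, R206 and R221 and 15.1, 10.5 and 11.8 CPM in S205, S207 and S242. In cross B it had 5.27 and 6.01 CPM in RP6 and RP8 and 5.35, 7.82, 5.01 and 12.1 CPM in SP3, SP7, SP9 and SRP1. SRP1 was the line of cross B within the range of cross A. The difference was -0.81 (SE 0.19, limma adjusted p = 0.0726), and without SRP1 it passed (limma adjusted p = 0.0125). It also passed with DESeq2 (adjusted p = 0.00691), and over its other alternatives in limma and edgeR the adjusted p ran up to 0.163.

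The HSFA1 factors, the master activators of the heat response in Arabidopsis, were represented by HSFA1B, HSFA1D and HSFA1E. HSFA1B (AT5G16820) stood at 12.4 ± 2.95 CPM in cross A and 9.52 ± 1.29 in cross B (SD, n = 6 each), a difference of -0.37 (limma adjusted p = 0.333). HSFA1D (AT1G32330) ranged over the 12 lines from 12.6 to 19.7 CPM and HSFA1E (AT3G02990) from 1.29 to 2.15 CPM, with differences of 0.03 and -0.09. HSFB1 (AT4G36990), of the repressor class, had the highest level per kb of the factors with 1 contig, at 14.8 ± 1.78 CPM per kb (SD, n = 12), and a difference of -0.02. HSFA4A (AT4G18880) stood at 7.23 ± 1.12 CPM in cross A and 5.44 ± 0.552 in cross B (SD, n = 6 each), a difference of -0.38 (limma adjusted p = 0.155). HSFA3 (AT5G03720) was highest in S205 at 13.6 CPM and lay between 5.67 and 11.3 CPM elsewhere. HSFC1 (AT3G24520) was highest in SP9 at 12.4 CPM and lowest in SP7 at 4.41 CPM. HSFB2A (AT5G62020) did not pass the filter, at 0.335 to 1.78 CPM.

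**Figure D2:**
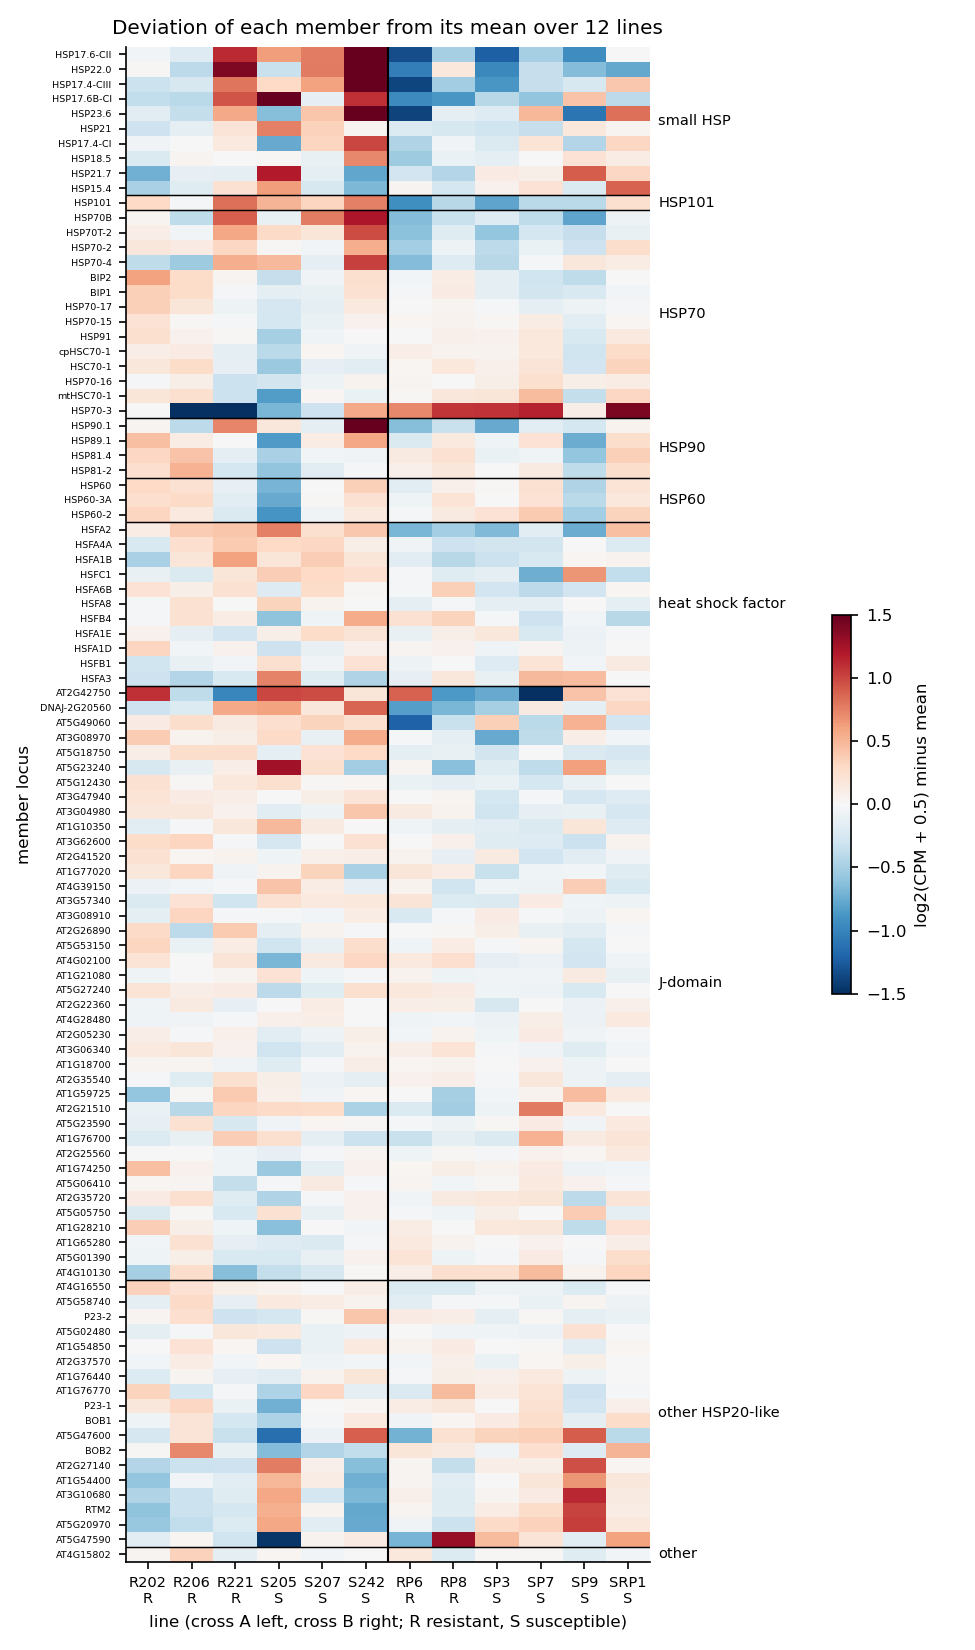
Deviation of each of the 102 members that passed the filter from its mean over the 12 lines, as log2(CPM + 0.5), red above and blue below the mean and limited at 1.5; rows are grouped by family, with cross A left of the line and cross B right of it. S242 and R221 are red for most inducible small heat shock proteins, HSP70B and HSP90.1, and S205 and SP9 are blue for the 3 HSP60 and most constitutive HSP70 and HSP90 loci.

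The level of HSP101 was set against 5 stress-inducible loci across lines, as log2(CPM + 0.5), with two-sided permutation tests and adjustment over the 5 relations. With HSP17.6-CII, Pearson's r was 0.92 (permutation p = 1e-05, the smallest the resamples can give, adjusted 5e-05) and Spearman's rho 0.95 (permutation p = 1e-05, adjusted 5e-05) over 12 lines. With HSP90.1, r was 0.82 (permutation p = 1.3e-04, adjusted 2.2e-04) and rho 0.91 (permutation p = 1.3e-04, adjusted 2.2e-04). MBF1C (AT3G24500), a coactivator of the heat response that is no member, gave r = 0.89 (permutation p = 3e-05, adjusted 7.5e-05) and rho = 0.92 (permutation p = 3e-05, adjusted 7.5e-05). These loci were high in the same lines, S242 and R221 among them.

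HSFA2 gave r = 0.88 (permutation p = 3.7e-04, adjusted 4.6e-04) and rho = 0.79 (permutation p = 0.00343, adjusted 0.00429), and HSP70-4 gave r = 0.72 (permutation p = 0.00755, adjusted 0.00755) and rho = 0.74 (permutation p = 0.00725, adjusted 0.00725). R221 and S242 were the lines farthest from the median of HSP101. Without them r was 0.94 for HSP17.6-CII, 0.89 for HSP90.1, 0.90 for HSFA2 and 0.87 for MBF1C over 10 lines. For HSP70-4 it was 0.52 (permutation p = 0.118, adjusted 0.118).

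Because HSP101 itself differed between the crosses, the relations were also taken within each cross of 6 lines. In cross A, r was 0.82 for HSP17.6-CII, 0.91 for HSP70-4, 0.84 for HSP90.1 and 0.85 for MBF1C, each with an exact permutation p that was 0.0451 after adjustment. Spearman's rho was 0.89 for HSP17.6-CII, HSP90.1 and MBF1C and 0.94 for HSP70-4 there (exact permutation, adjusted p = 0.0417 each). In cross B the same loci had r of 0.94, 0.82, 0.92 and 0.87 (exact permutation, adjusted p of 0.037 to 0.0382). By rank, HSP70-4 and MBF1C kept rho = 0.94 in cross B (exact permutation, adjusted p = 0.0417), while HSP17.6-CII had 0.77 (exact permutation, adjusted p = 0.129) and HSP90.1 0.89 (exact permutation, adjusted p = 0.0556). With HSFA2, r was 0.30 in cross A (exact permutation, adjusted p = 0.589) and 0.86 in cross B (exact permutation, adjusted p = 0.0861). Spearman's rho had the opposite order, 0.66 in cross A (exact permutation, adjusted p = 0.175) and 0.43 in cross B (exact permutation, adjusted p = 0.419). The relation with HSFA2 thus did not pass the threshold in either cross of 6 lines, and which cross had the larger value depended on the measure.

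The order of lines was shared by some members beyond these pairs, and others went the opposite way. S242 was the highest of the 12 lines for 6 of the 10 small heat shock proteins, 4 of the 14 HSP70 and 2 of the 4 HSP90. S242 was the lowest line for the small heat shock proteins HSP15.4 (2.24 CPM) and HSP21.7 (2.09 CPM). It was the lowest as well for members such as RTM2, AT3G10680, AT2G27140, AT5G20970 and HSFA3. Over the members tested it was highest for 23 (22.5%), against 7.56% of all loci. S242 also had the highest summed level of the dividing-cell markers, 357 CPM over 6 of 6 measured genes against 132 to 324 CPM in the other lines, and of the epidermis markers, 1739 CPM over 4 of 4 against 1051 to 1610 CPM. The part of these in the levels of the chaperones was not tested.

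Several constitutive chaperones had their lowest levels in S205 and SP9. HSC70-1 had 2237, 2414 and 1827 CPM in R202, R206 and R221 and 1354, 1823 and 1780 CPM in S205, S207 and S242. In cross B it had 2031 and 2222 CPM in RP6 and RP8 and 2088, 2274, 1622 and 2512 CPM in SP3, SP7, SP9 and SRP1. S205 and SP9 were below the other lines, while the difference between the crosses was 0.20 (SE 0.15, limma adjusted p = 0.603). The chloroplast HSP70 cpHSC70-1 (AT4G24280), which works in protein import and folding there, had 1104 CPM in S205 and 1192 CPM in SP9 against 1338 to 1774 CPM elsewhere.

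The mitochondrial chaperones had the same lowest lines. The mitochondrial HSP70 mtHSC70-1 (AT4G37910) had 149 CPM in S205 and 209 CPM in SP9 against 213 to 373 CPM elsewhere. HSP60 had 102 and 122 CPM in these lines against 149 to 213 CPM elsewhere, HSP60-2 (AT2G33210) 53.1 and 68.6 against 84.0 to 129 CPM, and HSP60-3A (AT3G13860) 29.1 and 37.5 against 44.3 to 60.8 CPM. HSP89.1 (AT3G07770), the mitochondrial HSP90, had 57.1 and 61.5 against 88.4 to 155 CPM. None of the HSP60 loci was called between the crosses, with limma differences of -0.01 to 0.21, and those of HSP60 and HSP60-3A changed sign with the line left out.

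The cytosolic HSP90 loci HSP81-2 and HSP81.4 (AT5G56000), whose reads may be shared because such copies are nearly identical, were also lowest in S205 and SP9. HSP81-2 had 633 and 730 CPM there against 792 to 1368 CPM elsewhere. P23-1 (AT4G02450), a co-chaperone that binds HSP90, had 127 and 173 CPM there against 197 to 261 CPM. In all, S205 and SP9 were the 2 lowest lines for the 3 HSP60, 6 of 14 HSP70, 3 of 4 HSP90, 8 of 40 J-domain and 3 of 18 other HSP20-like loci. That makes 23 members (22.5%), against 2518 of the 16051 loci tested. These lines also had the lowest summed levels of the dividing-cell markers, 132 CPM in S205 and 143 CPM in SP9 against 167 to 357 CPM over 6 of 6 genes. Their mesophyll sums were the highest, 85447 and 73346 CPM against 36825 to 58005 CPM over 5 of 8 genes. The part of these in the levels of the chaperones was not tested. Among the markers only GL1 (trichomes) reached 0, in S205.

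**Figure D3:**
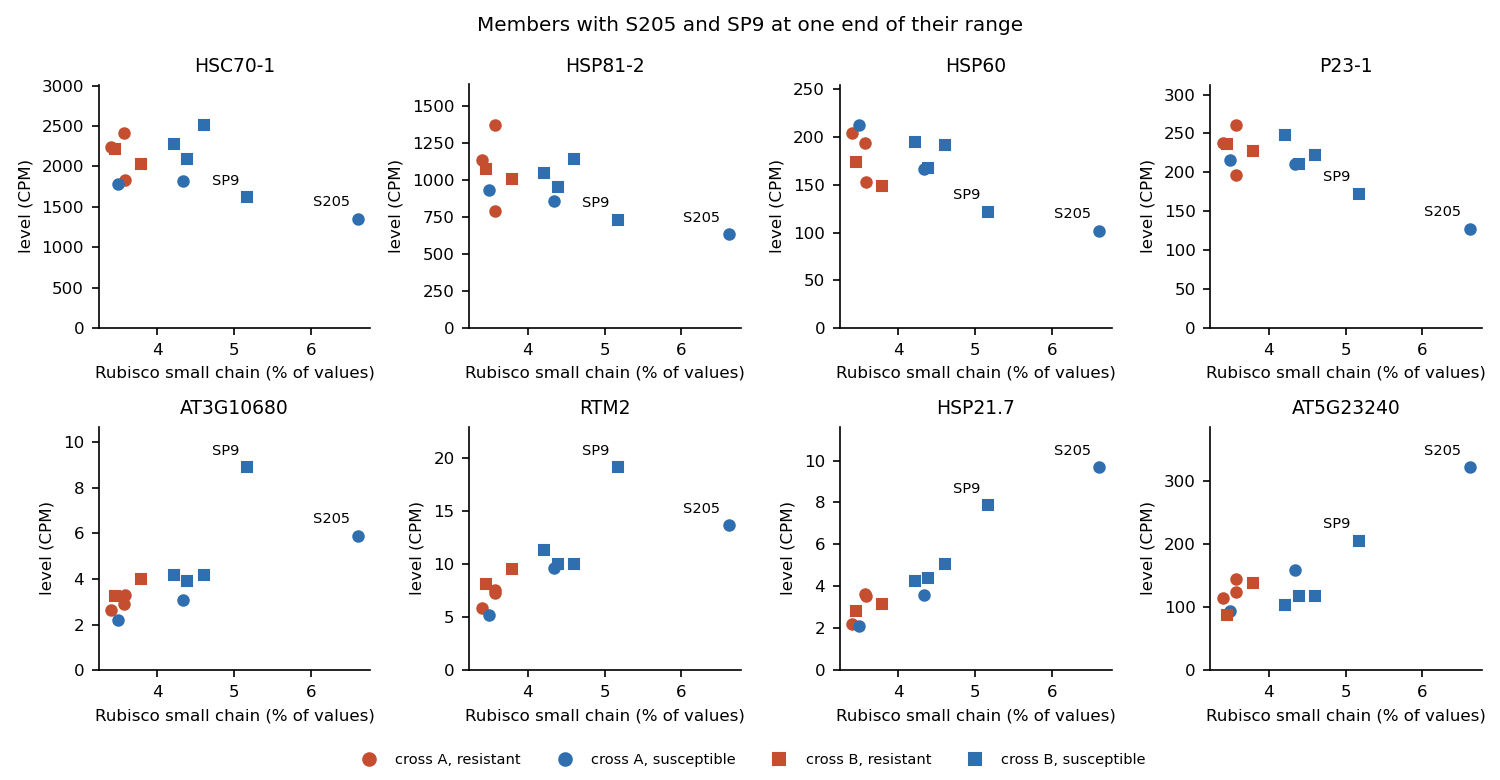
Level in CPM (y axis from 0) of 8 members against the share of values from the Rubisco small chain (x axis, percent) in the 12 lines, with colours and symbols by cross and phenotype. S205 at 6.62% and SP9 at 5.17% are the lowest lines for HSC70-1, HSP81-2, HSP60 and P23-1 and the highest for AT3G10680, RTM2, HSP21.7 and AT5G23240.

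The opposite end of the range was taken by a second set, in which S205 and SP9 were the 2 highest lines. It held 12 members (11.8%, against 16.6% of all loci), among them 5 J-domain and 5 other HSP20-like loci, 1 small heat shock protein and 1 heat shock factor. RTM2 (AT5G04890), which in Arabidopsis restricts the movement of a potyvirus through the phloem, had 13.7 CPM in S205 and 19.2 CPM in SP9 against 5.21 to 11.3 CPM elsewhere. AT3G10680 had 5.90 and 8.91 CPM against 2.18 to 4.195 CPM, AT2G27140 had 16.0 and 18.4 against 5.73 to 9.91 CPM, and AT5G20970 had 13.3 and 18.4 against 4.99 to 11.2 CPM. The vasculature markers, 5 of 5 measured, had their highest sums in these lines too, 373 CPM in S205 and 367 CPM in SP9 against 184 to 275 CPM elsewhere, and their part in these levels was not tested. The J-domain protein AT5G23240 had 322 CPM in S205 and 205.6 CPM in SP9 against 87.1 to 158 CPM elsewhere.

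A few members differed from line to line by more than their families did. HSP70-3 (AT3G09440), a cytosolic HSP70, had 63.3, 14.3 and 7.40 CPM in R202, R206 and R221 and 39.0, 50.9 and 94.5 CPM in S205, S207 and S242. In cross B it had 104 and 134 CPM in RP6 and RP8 and 134, 142, 68.1 and 170 CPM in SP3, SP7, SP9 and SRP1. R206 and R221 were far below every other line, and S242 lay inside the range of cross B. The difference between the crosses was 1.71 (SE 0.50, limma adjusted p = 0.142), and it was called by DESeq2 alone (adjusted p = 0.0318), with adjusted p-values of up to 0.327 in the other alternatives of limma and edgeR. R206 and R221 were also the 2 lowest lines of each of its 3 contigs, which come from both assemblies. Cytosolic HSP70 copies are nearly identical in places and may share reads, so the level of HSP70-3 is uncertain.

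AT5G18730, annotated by its DnaJ domain, did not pass the filter. It had 12.7 CPM in R206, 10.2 in R221, 7.14 in S207 and 5.04 in S242, and between 0.0678 and 0.153 CPM in the remaining lines. Its 4 high lines belonged to cross A and to both phenotypes, while R202 and S205 of that cross had 0.119 and 0.147 CPM. AT2G42750, another J-domain protein, ranged from 16.9 CPM in SP7 to 131 CPM in R202, with 123 CPM in S205, 121 in S207 and 113 in RP6, and these lines follow neither cross nor phenotype. AT5G47590, an HSP20-like locus, had 28.8 CPM in RP8 against 3.79 to 17.5 CPM elsewhere.

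**Figure D4:**
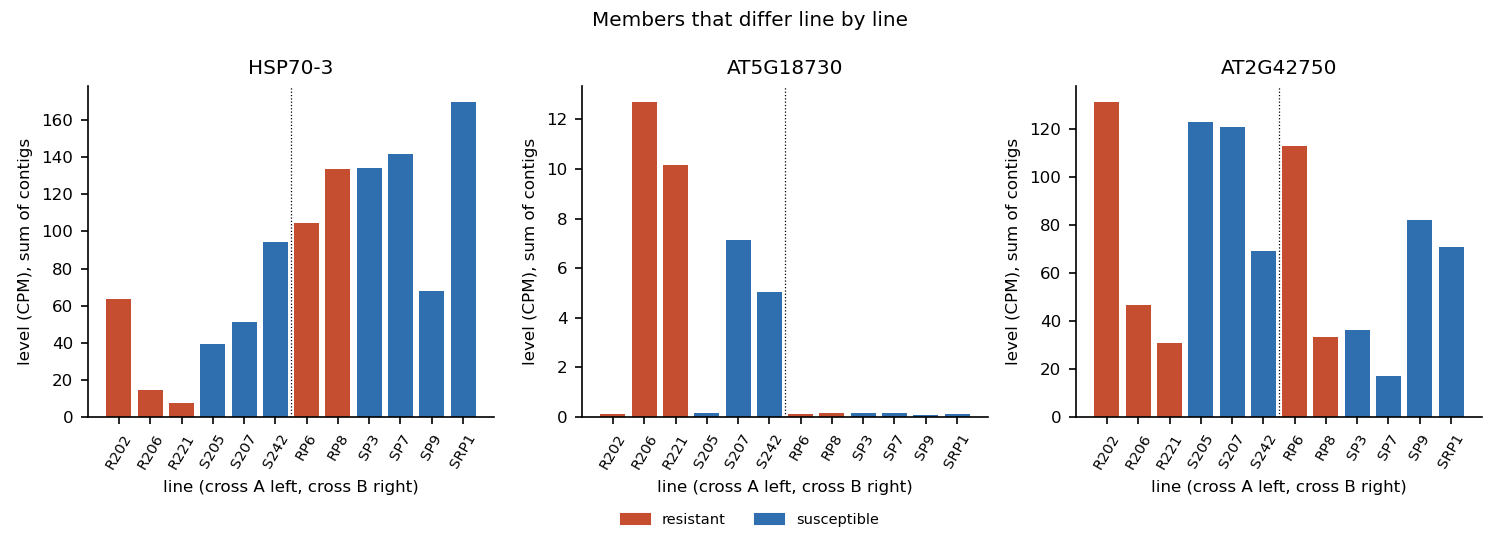
Level in CPM (bars from 0, 1 per line, without error since a line has 1 library) of HSP70-3, AT5G18730 and AT2G42750, with cross A left of the dotted line. HSP70-3 is at 14.3 CPM in R206 and 7.40 CPM in R221, and AT5G18730 reaches 12.7, 10.2, 7.14 and 5.04 CPM in R206, R221, S207 and S242 while the other lines are at or below 0.153 CPM.

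The J-domain proteins, the largest family with 42 members, held 40 tested loci, of which 24 had a difference between the crosses below 0 and 16 above, with a median of -0.02. AT2G20560, a J-domain protein of the type that heat induces in Arabidopsis, had a median of 3.97 CPM in cross A (2.26 to 5.81) and 2.28 CPM in cross B (1.44 to 3.74). Its crosses overlapped, and the difference was -0.67 (SE 0.19, limma adjusted p = 0.14). AT5G12430, with tetratricopeptide repeats, ranged from 25.2 to 29.6 CPM in cross A and from 20.7 to 25.1 CPM in cross B. The gap between its crosses was small, and the difference of -0.23 did not pass the test (SE 0.07, limma adjusted p = 0.155). AT5G18750 stood at 11.2 ± 1.27 CPM in cross A and 8.75 ± 0.674 in cross B (SD, n = 6 each), a difference of -0.32 (limma adjusted p = 0.125). The J-domain proteins that assist BiP in the endoplasmic reticulum of Arabidopsis were ERdj3B (AT3G62600), at 79.6 to 124 CPM over the lines, and ERdj3A (AT3G08970), at 7.91 to 20.3 CPM. Their differences were -0.16 (limma adjusted p = 0.542) and -0.41 (limma adjusted p = 0.298). Several J-domain loci hardly varied, such as AT4G28480, which lay between 42.3 and 49.9 CPM in the 12 lines.

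Among the other HSP20-like loci, 15 of 18 tested had a difference above 0 and 3 below, with a median of 0.15. Of those above 0, AT5G47600 turned from 0.20 to -0.11 and P23-1 from 0.14 to -0.0007 without S205. AT5G02480 turned from 0.0059 to -0.0089 with edgeR and -0.0063 with DESeq2. AT4G16550 ranged from 26.54 to 33.7 CPM in cross A and from 22.7 to 26.2 CPM in cross B, a difference of -0.26 (SE 0.07, limma adjusted p = 0.125). One of its contigs is the single member contig in the authors' deposited table of resistant against susceptible lines, with a log2 fold change of 1.95, a p-value of 0.0367 and an FDR of 1. That contig was low, at a log2 CPM of 0.68. Summed over its contigs, AT4G16550 differed between resistant and susceptible lines by 0.03 (limma adjusted p = 0.878). BOB1 (AT5G53400), a chaperone with a NudC domain that Arabidopsis needs for heat tolerance and development, lay between 31.3 and 52.8 CPM, with a difference of 0.16 (limma adjusted p = 0.618). The heat shock factor binding protein AT4G15802 lay between 56.0 and 82.5 CPM, with a difference of -0.07.

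**Figure D5:**
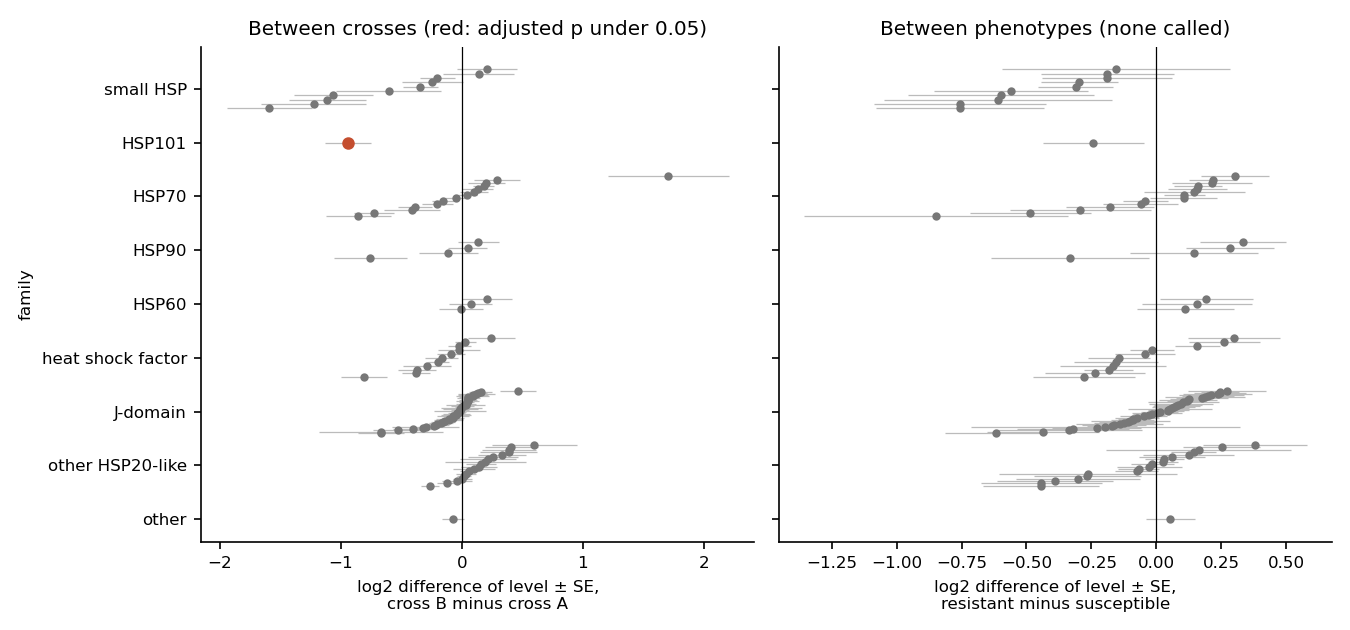
Log2 difference of level (x axis, points, with bars of ± 1 SE from limma) of the 102 members by family (y axis), for cross B minus cross A on the left and resistant minus susceptible on the right. HSP101 at -0.94 is the single red point, and no member is called between the phenotypes.

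Resistant and susceptible lines were compared over both crosses, with cross as a covariate. No member and no other locus was called by limma (0% of 16051 loci) or edgeR, and DESeq2 called 20 loci (0.125%), none of them a member. At an unadjusted p under 0.05, limma had 7 members (6.86%) and 1320 loci (8.22%). HSP101 stood at 18.09 ± 8.49 CPM over the resistant (SD, n = 5) and 18.8 ± 7.17 CPM over the susceptible lines (SD, n = 7), a difference of -0.24 (SE 0.19, limma adjusted p = 0.65).

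The 10 small heat shock proteins each had a difference below 0, from -0.76 to -0.15 with a median of -0.43, beside a median of -0.01 for all loci. The largest, of HSP17.4-CIII, had a limma adjusted p of 0.587, with means of 1.78 ± 1.296 CPM over the resistant (SD, n = 5) and 3.04 ± 2.51 CPM over the susceptible lines (SD, n = 7). HSP22.0, at -0.15, turned to 0.061 without R206. The 3 HSP60 loci lay above 0, at 0.11 to 0.19. Without S205 and SP9 they lay below 0, at -0.11 for HSP60-2, -0.12 for HSP60 and -0.027 for HSP60-3A. The summed dividing-cell markers ran from 246 to 324 CPM over the resistant and from 132 to 357 CPM over the susceptible lines. Of those markers 6 of 6 lay above 0 and of the mesophyll markers 5 of 5 below 0, none of them called, and their part in the differences of the chaperones was not tested.

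The members with the smallest p-values were 3 J-domain proteins and BIP1. The J-domain protein AT3G06340 stood at 11.5 ± 0.481 CPM over the resistant (SD, n = 5) and 9.67 ± 0.843 CPM over the susceptible lines (SD, n = 7), a difference of 0.25 (SE 0.07, limma adjusted p = 0.587). It was the member whose lines did not overlap between phenotypes with the resistant ones higher, a pattern of 0.237% of all loci, and no member had the opposite one, a pattern of 0.293%. AT2G20560 had a difference of -0.62, AT5G27240 of 0.25 and BIP1 of 0.22 (limma adjusted p = 0.587 each).

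Within cross A, 0% of loci were called by limma, and the same held for edgeR, while DESeq2 called 0.0561% without a member. Before adjustment, 5 members (4.9%) and 5.16% of loci had p under 0.05. BOB2 (AT4G27890) had the smallest p among members, at 1.29 ± 0.589 CPM over the resistant and 0.575 ± 0.105 CPM over the susceptible lines (SD, n = 3 each), a difference of 0.69 (limma adjusted p = 0.686). HSP70-3 stood at 28.3 ± 30.5 CPM over the resistant and 61.5 ± 29.2 CPM over the susceptible lines (SD, n = 3 each), a difference of -1.56 (limma adjusted p = 0.686). Within cross B, limma and edgeR each called 4 loci (0.0249%) and DESeq2 0.411%, none of them a member. Before adjustment 2 members (1.96%) and 4.4% of loci had p under 0.05 there. AT5G49060 stood at 4.09 ± 1.93 CPM in RP6 and RP8 (SD, n = 2) and 7.53 ± 2.498 CPM in the susceptible lines (SD, n = 4), a difference of -0.82 (limma adjusted p = 0.974). The difference between the crosses of the phenotype difference was called for 0% of loci by limma and edgeR, with 498 loci (3.1%) and 0 members at an unadjusted p under 0.05. DESeq2 called 16 loci (0.0997%) there, none a member.

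Other genes of protein folding that are no members were listed by Arabidopsis locus. Of 9 heat-inducible genes 8 were measured, each with a difference between the crosses below 0 and a median of -0.67. For resistant minus susceptible lines these 8 lay below 0 as well, with a median of -0.23 and no call. HOP3 (AT4G12400), a co-chaperone that links HSP70 to HSP90, was called lower in cross B. It stood at 22.3 ± 4.49 CPM there and 49.7 ± 12.4 CPM in cross A (SD, n = 6 each), a difference of -1.16 (SE 0.18, limma adjusted p = 0.0136). MBF1C stood at 1.69 ± 0.914 and 5.62 ± 4.62 CPM (SD, n = 6 each), a difference of -1.41 (limma adjusted p = 0.146).

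The remaining lists lay near 0. Of 10 co-chaperones of HSP70 and HSP90, 9 were measured and none was called, with a median of -0.04. The 12 chaperonins of the chloroplast and cytosol were all measured, 10 of them above 0, with a median of 0.12 and no call. Of 10 folding genes of the endoplasmic reticulum, 9 were measured with a median of -0.08. The nearest to the threshold was calreticulin CRT2 (AT1G09210), a calcium-binding lectin chaperone, with a difference of -0.54 (limma adjusted p = 0.0984). Of 26 chaperone and factor loci outside the wording that chose the members, 9 were measured and none was called, with a median of -0.12. No locus of any of these lists was called between phenotypes.

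Markers of leaf cell types were set beside these comparisons, and none was called between crosses or phenotypes. Measured were 5 of 8 mesophyll, 4 of 4 epidermis, 4 of 4 guard cell, 5 of 5 vasculature, 3 of 3 trichome and 6 of 6 dividing-cell markers. The 3 root and the 3 anther markers were not measured here. Between the crosses the summed levels overlapped for each list. Medians in cross A and cross B were 42053 and 54499 CPM for mesophyll and 294 and 203 CPM for dividing cells. They were 102 and 78.5 CPM for guard cells, 29.4 and 20.2 CPM for trichomes, 220 and 268 CPM for vasculature and 1193 and 1254 CPM for epidermis. Every guard cell and trichome marker had a difference below 0 and every mesophyll and vasculature marker a difference above 0. Epidermis and dividing-cell markers lay on both sides. The 7 measured of 9 clock genes had sums of 243 to 451 CPM in cross A and 294 to 441 CPM in cross B. The part of these in the lower HSP101 of cross B was not tested.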

How the data were processed

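Strand-specific TruSeq mRNA libraries were made from 1 leaf sample of each of 12 lines, per the labels. The submitters' processing notes name Bowtie2, SAMtools 1.3.1, edgeR, R 3.3 and TAIR10; the sources used here do not state their roles, nor how a read that fits both Trinity assemblies was assigned. The deposited signal is a normalized read count for each contig, in CPM with library sizes that were rescaled: columns sum to 915639 to 1180044, and 100% of values are whole reads within 0.1 once divided by the value of 1 read. The authors' deposited comparison gives log2 fold changes and p-values. The limit of 3 reads covers counting error only.

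CPM were summed per locus. R 4.3.3 and limma 3.58.1 with its trend option tested log2(CPM + 0.5), a scale that understates changes of low loci. Loci that reached 1 CPM in 5 or more libraries were adjusted together by Benjamini-Hochberg, with a threshold of 0.05. The spread was estimated over all 12 lines. Cross and phenotype were covariates of each other, and comparisons within crosses used 1 mean per group. edgeR 4.0.16 and DESeq2 1.42.0 were run on the recovered reads. Correlations used 100000 permutations (exact within a cross, 720 arrangements). The design assumed plain CPM, and its test was kept.

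The members and lists were chosen with earlier results of these data known. Named members were those called, the 5 with the smallest p per comparison, the 3 with the largest range and 2 with the highest mean per family, listed heat shock factors and the loci of the correlations. Other members in the text were picked with their values in view. The limma step was tested on simulated data.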

Additional observations from a re-analysis of the deposited data

Results flagged for a closer look

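In 135 groups of 4 or 6 lines, the highest or lowest line was compared with the gap and range of its group, and 13 stood far from the others. Chance gives about 1 in 20 groups where values are unselected and independent. Here several members were named for their large range over the lines, and some groups shared lines. The count therefore cannot be set against that rate. S242 stood above the other lines of cross A for HSP17.6-CII (19.4 CPM), HSP17.4-CIII (8.38 CPM), HSP90.1 (59.5 CPM) and HSP18.5 (24.0 CPM). SRP1 stood above the other lines of cross B for HSP101, at 20.4 CPM against 8.84 to 12.9 CPM. S205 stood above the other lines of cross A for AT5G23240 (322 CPM) and AT3G10680 (5.90 CPM). SP9 stood above the other susceptible lines of cross B for AT5G23240 (205.6 CPM) and AT3G10680 (8.91 CPM), for the latter also above the other lines of cross B, and for AT5G02480 above the lines of cross B (113 CPM against 90.8 to 97.5 CPM). R206 stood above the other lines of cross A for BOB2 (1.97 CPM) and AT4G15802 (82.5 CPM).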

How the results depend on the processing

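HSP101, the member called by limma, kept its direction in every alternative, and so did the 5 correlations. Members called between crosses numbered 1 by limma, 0 by edgeR, 15 by DESeq2, 3 as single contigs, 0 without S205 and SP9 together (chosen after seeing the data), and 0 to 3 with 1 line left out. Loci called between crosses numbered 200 by limma, 772 by DESeq2, 682 as single contigs and 54 to 270 with 1 line left out. Between phenotypes limma called 0 and DESeq2 20. Within cross A the count was 0 by limma, 1 with a pseudocount of 2, 9 by DESeq2, 1 as single contigs, 1 without S205 and SP9, and 0 to 6 with 1 line left out. Within cross B it was 4, 2 with a pseudocount of 2, 66 by DESeq2, 19 as single contigs, 23 without S205 and SP9, and 0 to 17 with 1 line left out. For the difference between crosses it was 0, 16 by DESeq2, 5 without S205 and SP9, and 0 to 7 with 1 line left out. Pearson's r of HSP101 with HSP70-4 went from 0.72 to 0.52 without R221 and S242. With HSFA2, r went from 0.88 to 0.30 within cross A and 0.86 within cross B. Spearman's rho with HSFA2 went from 0.79 to 0.66 within cross A and 0.43 within cross B. Among values of single members, 1793 kept their direction and side of the threshold, 12 were no longer past it, 13 came past it and 2 moved, the differences of HSP70B and HSP22.0 between crosses, which were farther below 0 with edgeR. Another 62 changed sign, in 21 differences that were not called and were at most 0.34 in size, and none of the changed values was called. Between crosses, DESeq2 gave -0.017 for AT5G27240 and -0.0063 for AT5G02480, edgeR -0.020 and -0.0089, and rescaling by the median ratio -0.0025 and -0.0046. Without the covariate, AT5G27240 had -0.033, HSFB1 0.010 and HSP81.4 -0.0051. Without S205 and SP9, AT5G27240 had -0.041, HSFB1 0.038, HSP60-3A -0.027, HSFA1D -0.025 and AT5G47600 -0.21. With 1 line left out, differences between crosses ran from -0.067 to 0.10 for AT5G27240, -0.057 to 0.027 for HSFB1, -0.18 to 0.098 for HSP60, -0.095 to 0.17 for HSP60-3A and -0.33 to 0.044 for HSP89.1. They ran from -0.036 to 0.14 for HSP81.4, -0.032 to 0.074 for HSFA1D, -0.11 to 0.43 for AT5G47600, -0.0007 to 0.20 for P23-1 and -0.034 to 0.045 for AT5G02480. Between phenotypes, HSP22.0 had 0.055 without the covariate. Without S205 and SP9, the phenotype difference was -0.11 for HSP60-2, -0.12 for HSP60, -0.027 for HSP60-3A, -0.022 for cpHSC70-1 and -0.17 for HSP89.1. It was 0.065 for AT2G42750, 0.011 for AT5G23240, -0.17 for AT5G47590 and 0.058 for AT5G02480. With 1 line left out, it ran from -0.0095 to 0.23 for HSP60-2, -0.044 to 0.21 for HSP60, -0.054 to 0.28 for HSP89.1 and -0.66 to 0.088 for AT2G42750. For AT4G15802 it ran from -0.012 to 0.13, for AT5G47590 from -0.15 to 0.54, for AT5G02480 from -0.058 to 0.020 and for HSP22.0 from -0.39 to 0.061. The range of HSP22.0 covers 7 fits, because it failed the filter when R202, R221, S207, S242 or RP8 was left out. Causes were not tested. No paired analysis was possible because lines of different groups share no number in the labels.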
